A study of Mus musculus with 4 samples.

Results

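The genes described here are the secreted Wnt ligands of the mouse, their receptors, their secreted antagonists and the feedback and nuclear genes of the pathway, 52 genes among the 56691 of the deposited table. They were picked by symbol: every Wnt, Fzd, Sfrp and Dkk gene, together with Axin2, Nkd1, Nkd2, Lgr5, Rnf43, Znrf3, Notum, Lef1, Tcf7, Lrp5, Lrp6, Ror1, Ror2, Frzb and Wif1. By role they are 19 ligands, 14 receptors and co-receptors, 11 antagonists, 6 feedback regulators and 2 nuclear factors. RNA-seq was made from primary wild-type cardiac fibroblasts of mouse hearts at postnatal days 1 to 3, taken at day 7 of reprogramming towards induced cardiomyocyte-like cells. The MGT+shScd1 group (2 libraries) received Mef2c, Gata4 and Tbx5 (MGT) and a short hairpin RNA against Scd1. The MGT+shNT group (2 libraries) received the same 3 factors and a non-targeting hairpin, so both groups carried the reprogramming factors and no library without them was compared. The labels do not say how many hairpins against Scd1 were used. They also leave unsaid if the libraries of a group are separate cultures; each p-value below therefore reflects only the scatter of these libraries, which may be technical.

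Wnt ligands are secreted, lipid-modified proteins. The acyltransferase Porcn attaches palmitoleate to them, a monounsaturated fatty acid of the kind that stearoyl-CoA desaturases such as Scd1 make, and the carrier Wls takes them to the cell surface. A ligand that binds a Frizzled receptor and the co-receptor Lrp5 or Lrp6 stops the destruction complex (Axin, Apc, Gsk3) from degrading beta-catenin, which then switches on target genes together with Tcf and Lef factors, among them Axin2, Nkd1 and Notum, whose products damp the signal. Other ligands, Wnt5a and Wnt11 being the best known, act mostly through Ror receptors and the planar polarity branch without beta-catenin. In the heart the pathway is known for stage-dependent roles in specifying cardiac cells and for its part in fibroblast activation after injury. Only RNA was measured here, not the proteins, their lipid or beta-catenin activity.

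Scd1 had 6.64 and 8.04 CPM in MGT+shScd1, against 84.4 and 63.5 CPM in MGT+shNT, a log2 fold change of -3.34. CPM is the count scaled to the library's total after TMM adjustment, a correction for differences in library composition. Total counts were 19104319 and 18679918 in MGT+shScd1 and 20894972 and 15135227 in MGT+shNT. The second MGT+shNT library was richer in ribosomal RNA, with 3.32% of its counts in Rn18s-rs5 against 0.129% to 0.199% in the other 3 libraries. PolyA RNA is given as the molecule, but the library protocol describes ribosomal RNA depletion, so the step that left this share cannot be told. Calls that are lost without it are given below. Markers of the starting cells and of other cells of the heart also moved. The sums below are carried by their most abundant genes, and the counts of markers called stand beside 29.3% called over all genes tested. The summed level of 7 fibroblast markers was 8151 and 8240 CPM in MGT+shScd1 and 13014 and 12433 CPM in MGT+shNT (5 lower, 0 higher). Most of it was Col1a1 (5105 and 5185 CPM, against 7408 and 7114 CPM) and Col1a2 (2087 and 2119 CPM, against 4374 and 4208 CPM), and Pdgfra (-0.08, adjusted p = 0.357) and Dcn (-0.20, adjusted p = 0.117) did not pass. That of 7 macrophage markers was 170 and 165 CPM, against 681 and 630 CPM (4 lower, 1 higher), mostly Lyz2 (126 and 118 CPM, against 568 and 552 CPM), while C1qb rose (0.65, adjusted p = 0.0372). In 6 cardiomyocyte markers the sum was 4753 and 4660 CPM, against 4110 and 4684 CPM (3 higher, 2 lower). The sums overlapped, but single genes moved in opposite directions. Actn2 (log2 fold change 1.52), Myh6 (1.31) and Actc1 (1.10) were higher in MGT+shScd1. Tnnt2, the most abundant, was lower (2533 and 2394 CPM, against 2996 and 3342 CPM). Nppa was lower too (21.6 and 18.9 CPM, against 48.3 and 55.5 CPM), and Ryr2 did not pass (0.04, adjusted p = 0.736). In 7 epicardial and mesothelial markers the sum was 550 and 559 CPM, against 590 and 597 CPM (2 higher, 3 lower). Smooth muscle markers (4 genes) summed to 2827 and 2616 CPM against 2319 and 2982 CPM (1 higher, 1 lower), and endothelial markers (5 genes) to 24.1 and 25.3 CPM against 32.6 and 26.6 CPM (0 higher, 1 lower). None of the markers in these lists was at 0 counts in any library. The part of these shifts in cell markers in the results below was not tested, and in bulk RNA fewer cells of a type and less RNA per cell cannot be told apart.

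The design sets knockdown of Scd1 during reprogramming against the control hairpin. Axin2, Tcf7 and Notum, known targets of beta-catenin in several tissues, and the ligands Wnt11, Wnt5b, Wnt4 and Wnt2 were higher in MGT+shScd1, each by more than 1 on the log2 scale. The call of Wnt2 was lost with any single library left out, and that of Wnt4 without MGT+shScd1 replicate 2. The targets did not move together: Nkd1, also a known target, fell (-0.41, called under every setting), and Lef1 did not pass (0.36), while the calls of Tcf7 and Notum were lost with either MGT+shScd1 library left out. Receptors went both ways by smaller amounts, with Fzd7, Fzd8 and Fzd4 lower and Fzd3, Fzd5 and Fzd2 higher, and the antagonists Frzb and Dkk3 were lower. Of these, Fzd7, Fzd8 and Fzd5 were called under every setting, while Fzd4, Fzd3, Fzd2, Frzb and Dkk3 each lost the call under at least 1. Of the 52 members, 35 passed the filter on low counts and were tested; 11 rose, 8 fell and 16 did not pass an adjusted p of 0.05 (edgeR's quasi-likelihood test, Benjamini-Hochberg over 16234 genes, the source of all adjusted p-values below). A gene could pass the filter through 1 group alone, so the tested members do not stand for all 52. Wnt2, Wnt3, Dkk2, Notum and Tcf7 passed it only through MGT+shScd1, the group where they were higher. Their direction is therefore no support for a rise of the members. Over all genes tested, 29.3% were called, 13.1% higher and 16.3% lower. The median log2 fold change of the tested members was 0.18, against 9.4e-05 over all genes tested. That median includes the members that passed the filter only through MGT+shScd1, all with positive changes. It is therefore no measure of a shift of the members. The 2 groups did not overlap in 30 of the 35 members, 16 higher and 14 lower, and in 64.3% of all genes tested. By role, 4 ligands rose and 1 fell of 10 tested, 4 receptors rose and 4 fell of 12, 1 antagonist rose and 2 fell of 7, 1 feedback regulator rose and 1 fell of 4, and 1 nuclear factor rose of 2. Without MGT+shScd1 replicate 1 the members called were 5 higher and 6 lower, and without MGT+shScd1 replicate 2 they were 4 and 7, while calls over all genes dropped as well, to 860 and 1357 and to 1042 and 1607, against 2122 and 2641. Without MGT+shNT replicate 1 they were 10 and 10 and without MGT+shNT replicate 2 they were 8 and 10. On log2(FPKM + 1) of the deposited values, which carry no TMM factors, 10 rose and 3 fell, and on log2(FPKM + 0.1) 9 rose and 4 fell, and over all genes 2256 rose and 1249 fell on the first of these scales and 2260 and 1266 on the second.

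**Figure D1:**
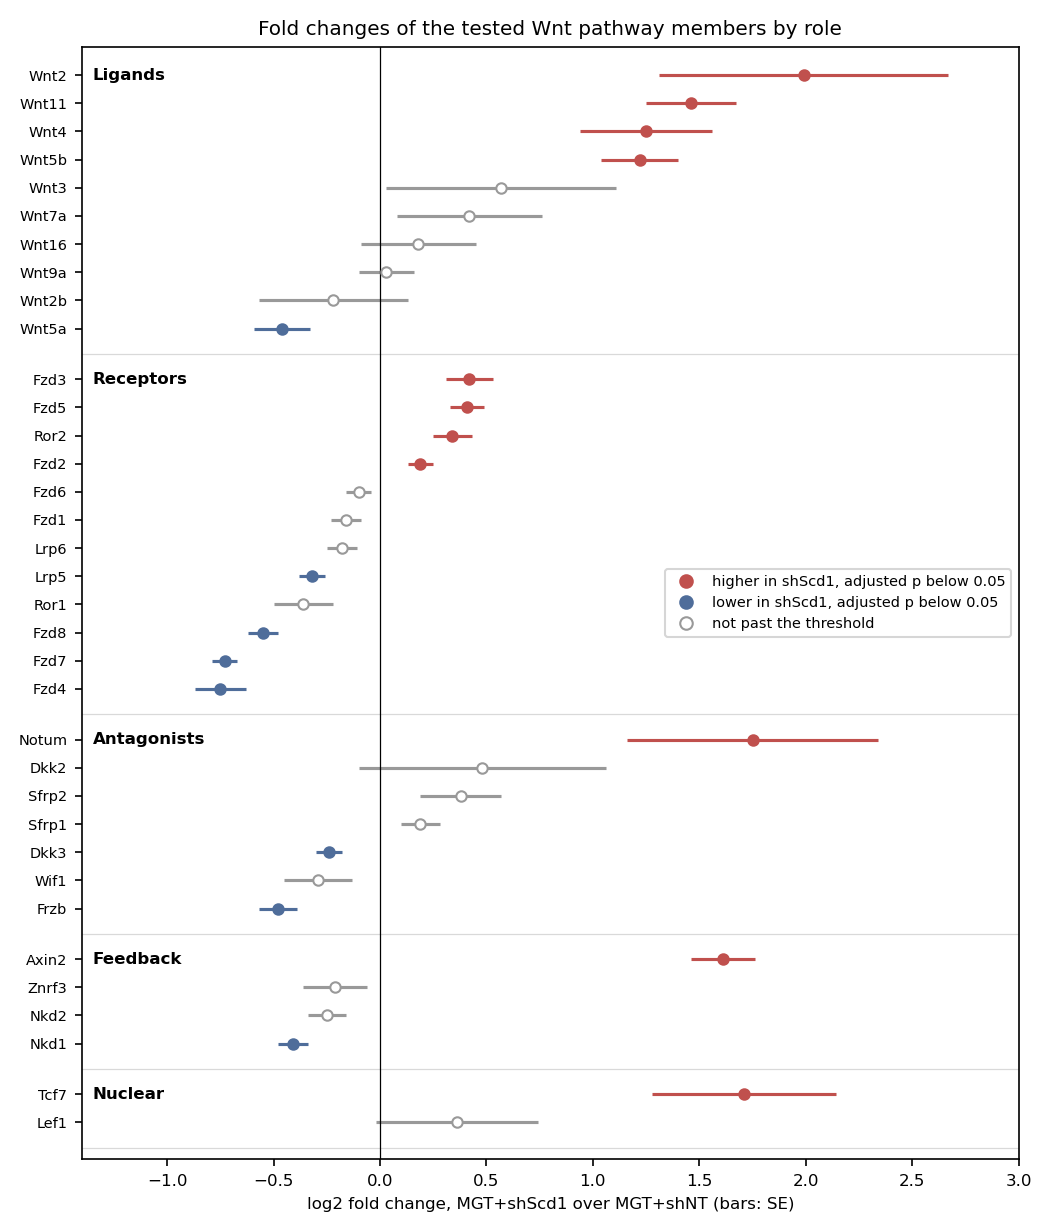
Log2 fold change of MGT+shScd1 over MGT+shNT for the 35 tested members, grouped by role, with bars of 1 standard error (SE); filled points passed the adjusted p of 0.05. The ligands Wnt2, Wnt11, Wnt4 and Wnt5b and the targets Notum, Axin2 and Tcf7 lie between 1.22 and 1.99, the ligands Wnt5a (-0.46) and Wnt2b (-0.22, not called) and the target Nkd1 (-0.41) lie left of 0, and receptors stay between -0.75 and 0.42.

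Of the 19 called members, 7 kept their call under all 10 alternative settings: Wnt11, Wnt5b, Fzd5, Fzd7, Fzd8, Axin2 and Nkd1. The promoters of those with a RefSeq entry that is shown here, the 250 bases before the annotated start in GRCm38.p6, 5′ to 3′ on the gene's strand, are printed because these calls did not depend on the setting. Capitals mark matches to the core motif of Tcf and Lef factors, searched on both strands with CTTTGAA, likewise with CTTTGAT, then also with CTTTGTA, and finally with CTTTGTT.
Axin2, chr11:108920099-108920348, plus strand: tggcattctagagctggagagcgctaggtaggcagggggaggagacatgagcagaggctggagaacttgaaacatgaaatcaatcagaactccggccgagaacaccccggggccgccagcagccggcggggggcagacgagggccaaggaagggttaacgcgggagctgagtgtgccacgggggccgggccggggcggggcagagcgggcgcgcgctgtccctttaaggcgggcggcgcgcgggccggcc
Wnt11, chr7:98834862-98835111, plus strand: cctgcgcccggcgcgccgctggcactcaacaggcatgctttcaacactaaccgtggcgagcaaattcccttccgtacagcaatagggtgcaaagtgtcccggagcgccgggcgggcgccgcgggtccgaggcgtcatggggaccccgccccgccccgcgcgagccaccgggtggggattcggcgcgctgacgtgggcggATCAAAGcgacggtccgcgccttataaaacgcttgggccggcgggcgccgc
Wnt5b, chr6:119449387-119449636, minus strand: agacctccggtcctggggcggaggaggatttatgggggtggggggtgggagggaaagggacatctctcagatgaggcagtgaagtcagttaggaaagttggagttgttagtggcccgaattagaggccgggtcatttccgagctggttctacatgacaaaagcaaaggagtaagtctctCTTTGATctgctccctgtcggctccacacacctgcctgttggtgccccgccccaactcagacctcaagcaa
Fzd7, chr1:59481897-59482146, plus strand: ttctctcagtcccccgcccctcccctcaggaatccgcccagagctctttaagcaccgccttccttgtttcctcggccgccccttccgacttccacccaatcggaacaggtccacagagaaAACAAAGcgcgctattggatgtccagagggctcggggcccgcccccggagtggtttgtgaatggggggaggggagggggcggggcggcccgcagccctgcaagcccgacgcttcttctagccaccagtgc
Fzd5, chr1:64737751-64738000, minus strand: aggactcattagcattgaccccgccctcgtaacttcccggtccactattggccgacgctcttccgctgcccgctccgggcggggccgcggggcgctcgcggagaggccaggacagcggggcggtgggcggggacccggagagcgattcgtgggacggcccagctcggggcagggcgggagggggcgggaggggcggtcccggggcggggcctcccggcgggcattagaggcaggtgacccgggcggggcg
Nkd1, chr8:88527383-88527632, plus strand: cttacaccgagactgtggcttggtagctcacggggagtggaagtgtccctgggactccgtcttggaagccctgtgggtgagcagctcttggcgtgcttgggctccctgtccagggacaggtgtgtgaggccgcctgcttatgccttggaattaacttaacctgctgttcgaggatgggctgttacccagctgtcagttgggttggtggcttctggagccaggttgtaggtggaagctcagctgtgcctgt
The Wnt11 window holds CTTTGAT on the opposite strand, starting 51 bases before the annotated start, the Wnt5b window holds CTTTGAT on its own strand 71 bases before it, and the Fzd7 window holds CTTTGTT on the opposite strand 130 bases before it. RefSeq gives Wnt11 a further start and Wnt5b 2 further starts whose windows held no match. For both genes only the window with a match is printed. That of Wnt5b lies inside the gene as placed by GENCODE M21, which starts it at 119544347, and the window before that start held no match. In the windows of Axin2, Fzd5 and Nkd1 these letters were not found. The Nkd1 window lies inside the gene as placed by GENCODE M21, which starts it at 88521354. The bases before that start were not searched. GENCODE M21 starts Fzd7 at 59482424, downstream of its window, and most of the 250 bases before that start were not searched. Counting windows of 300 bases (250 before and 50 from the start), 43 windows of 35 members were in the table and 6 of them (14%) held a match, against 16.9% of 32851 windows of all genes. Among members, 2 of 12 windows of genes called higher and 1 of 4 of genes called lower held one. The member windows were richer in G and C, with a median of 66% against 52.7% over all windows, and the motif is rich in A and T. A match describes the letters in the window and is not a bound site.

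Ligands. Of 19 Wnt genes, 10 were tested. The CPM of all 19 summed to 52.2 and 55.2 in MGT+shScd1 and to 46.1 and 43.9 in MGT+shNT. The sum of their deposited FPKM (counts divided by exonic length and by the library's total) was 14.0 and 14.3 in MGT+shScd1 and 10.3 and 9.34 in MGT+shNT. The relative gap between the groups was wider on this FPKM scale, which weights short genes more and carries no TMM factors. Wnt9a and Wnt5b held the largest shares in both MGT+shScd1 libraries, and Wnt9a and Wnt5a in both MGT+shNT libraries. Wnt5b held 27.0% and 24.0% of the ligand FPKM in MGT+shScd1, against 14.8% and 14.3% in MGT+shNT. Wnt5a held 11% and 13.6%, against 23.2% and 22.5%, and Wnt9a 25.6% and 24.5%, against 33.1% and 33.0%. Wnt5b and Wnt5a are close paralogues that act largely without beta-catenin, and their ratio per exon length within a library, which no scaling between libraries touches, was 2.44 and 1.76 in MGT+shScd1, against 0.639 and 0.639 in MGT+shNT.

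Wnt11, a ligand of the beta-catenin-independent branch needed in heart development, had 6.38 and 7.06 CPM in MGT+shScd1 and 2.38 and 2.52 CPM in MGT+shNT. Both MGT+shScd1 libraries lay above both controls, and the log2 fold change was 1.46 (SE 0.21, adjusted p = 0.000198). Wnt5b had 9.73 and 8.82 CPM, against 4.12 and 3.78 CPM, again without overlap, a log2 change of 1.22 (SE 0.18, adjusted p = 0.000168). Wnt4, known for its roles in kidney and gonad development, had 3.60 and 4.57 CPM in MGT+shScd1 and 2.08 and 1.26 CPM in MGT+shNT. The groups were apart, though the control libraries differed from each other, and the log2 fold change was 1.25 (SE 0.31, adjusted p = 0.0077). The call on Wnt4 was lost without MGT+shScd1 replicate 2 (1.08, adjusted p = 0.12). On log2(FPKM + 1), which understates changes of low genes, the values were 0.77 for Wnt11 and 0.54 for Wnt4, both still called. Wnt2, a ligand active in early heart and lung development, was scarce, with 13 and 10 counts in MGT+shScd1 and 3 and 2 in MGT+shNT. Its log2 fold change was 1.99 (SE 0.68, adjusted p = 0.0412), and it did not pass with any single library left out (values from 1.81 to 2.15, adjusted p from 0.127 to 0.402), with no filter on low counts (adjusted p = 0.111) or with the replicate number as a block (adjusted p = 0.0505).

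Wnt5a, the best studied ligand of the branch without beta-catenin, moved the other way from its paralogue. It had 11.8 and 14.7 CPM in MGT+shScd1 and 19.0 and 17.4 CPM in MGT+shNT, the lower pair lying wholly below the controls, with a log2 change of -0.46 (SE 0.13, adjusted p = 0.0174). The call was lost without MGT+shScd1 replicate 1 (-0.31, adjusted p = 0.232), with DESeq2's test (adjusted p = 0.063) and on both FPKM scales (adjusted p of 0.181 and 0.192). Wnt9a, the ligand with the most FPKM in the controls, had 11.6 and 11.3 CPM in MGT+shScd1 and 11.5 and 10.8 CPM in MGT+shNT. Its groups overlapped, and the log2 fold change was 0.03 (SE 0.13, adjusted p = 0.891). Wnt16 (0.18, SE 0.27), Wnt7a (0.42, SE 0.34), Wnt3 (0.57, SE 0.54) and Wnt2b (-0.22, SE 0.35) had between 0.42 and 3.34 CPM per library and did not pass (adjusted p from 0.404 to 0.696).

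The other 9 ligands had too few counts to test. Wnt1, Wnt3a and Wnt8b had 0 counts in all 4 libraries, which at these depths allows a level of up to 0.152 and 0.156 CPM in MGT+shScd1 and 0.145 and 0.21 CPM in MGT+shNT (3 counts each, counting error only). Wnt8a and Wnt9b had no more than 3 counts in all. Wnt10b had 4 and 9 counts in MGT+shScd1 and 4 and 3 in MGT+shNT, Wnt10a 0 and 7 against 6 and 3, Wnt6 3 and 4 against 3 and 0 (ratio 2.09, exact 95% counting interval 0.477 to 12.5) and Wnt7b 1 and 5 against 1 and 0 (5.37, 0.652 to 247). Both intervals include 1. Wnt genes often lie in pairs, and 4 pairs of members lay within 100 kb of each other in GRCm38. On chromosome 11, Wnt3a at 0 counts lies 16.2 kb from Wnt9a, and Wnt9b, with 1 count in all, 24.3 kb from Wnt3. Wnt6 and Wnt10a (6.2 kb, chromosome 1) and Wnt10b and Wnt1 (11.7 kb, chromosome 15) were both near or at 0.

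**Figure D2:**
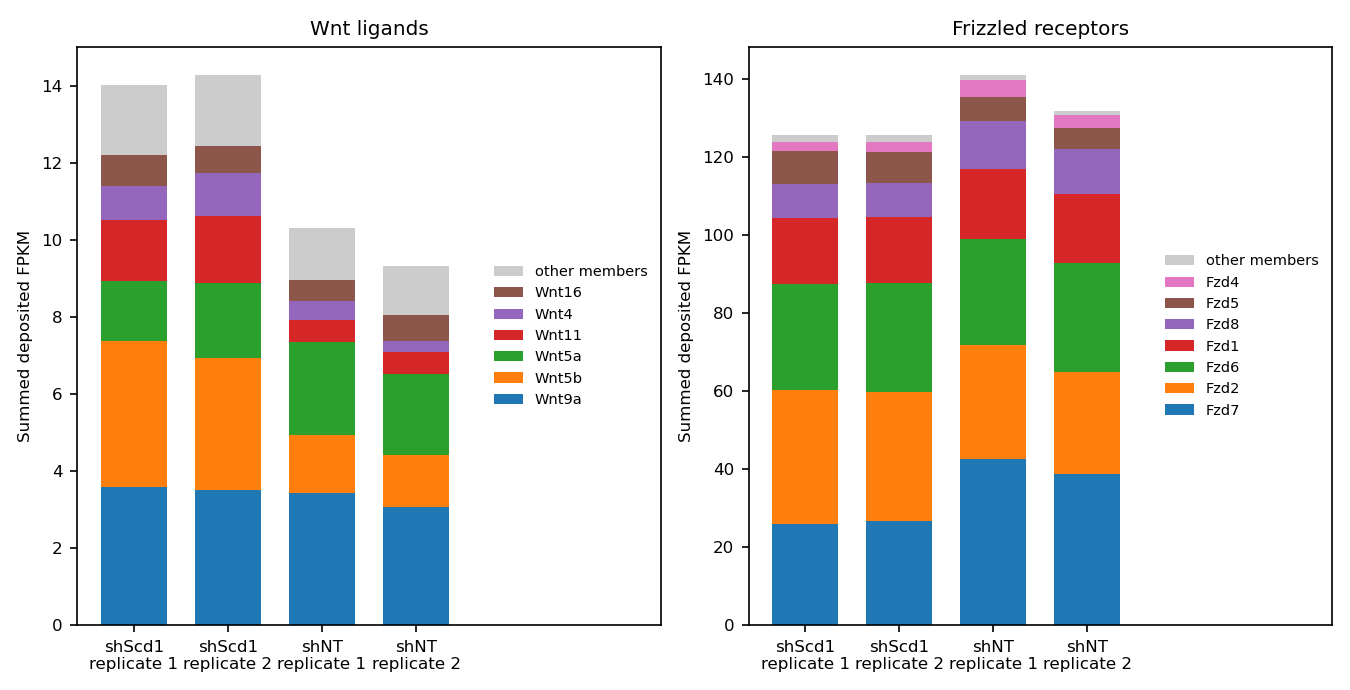
Summed deposited FPKM of the Wnt ligands (left) and the Frizzled receptors (right) in each library, stacked by gene, MGT+shScd1 libraries left of MGT+shNT libraries. The ligand sum is 14.0 and 14.3 in MGT+shScd1 against 10.3 and 9.34 in MGT+shNT, with a larger Wnt5b share and a smaller Wnt5a share, and the Fzd7 share is smaller in MGT+shScd1.

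Receptors. Frizzled proteins are the receptors with 7 membrane spans that bind Wnt through a cysteine-rich domain. Of 10 Fzd genes, 8 were tested, of which 3 rose, 3 fell and 2 did not pass, beside 29.3% called over all genes tested. Their FPKM summed to 126 and 126 in MGT+shScd1 and to 141 and 132 in MGT+shNT, far above the ligands. Fzd7 held 20.6% and 21.2% of the Fzd FPKM in MGT+shScd1, against 30.2% and 29.3% in MGT+shNT, where it led the family. Fzd2, of the same subfamily, held 27.3% and 26.4% in MGT+shScd1, where it was first, and 20.6% and 19.9% in MGT+shNT. The ratio of Fzd2 to Fzd7 per exon length was 1.33 and 1.25 in MGT+shScd1 and 0.684 and 0.679 in MGT+shNT.

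Fzd1, Fzd2 and Fzd7 form a subfamily by sequence, as do Fzd5 and Fzd8, and in both of them members moved in opposite directions. Fzd7 had 113 and 117 CPM in MGT+shScd1 and 196 and 186 CPM in MGT+shNT, a wide gap beside the spread within groups (log2 fold change -0.73, SE 0.06, adjusted p = 1.33e-06, the smallest among the members). Fzd2 had 122 and 118 CPM, against 108 and 102 CPM, a log2 change of 0.19 (SE 0.06, adjusted p = 0.0356), and Fzd1 had 68.2 and 69.4 CPM, against 75.2 and 78.4 CPM (-0.16, SE 0.07, adjusted p = 0.0901). The small rise of Fzd2 did not pass with DESeq2's test (adjusted p = 0.111) or without MGT+shScd1 replicate 1 (0.16, adjusted p = 0.272), MGT+shScd1 replicate 2 (0.21, adjusted p = 0.137) or MGT+shNT replicate 2 (0.15, adjusted p = 0.134). Fzd8 had 51.1 and 50.3 CPM in MGT+shScd1 and 75.4 and 73.3 CPM in MGT+shNT (-0.55, SE 0.07, adjusted p = 4.17e-05), whereas its closest relative, Fzd5, had 56.6 and 53.6 CPM, against 43.1 and 39.5 CPM (0.41, SE 0.08, adjusted p = 0.0013). The ratio of Fzd5 to Fzd8 per exon length was 0.958 and 0.921 in MGT+shScd1 and 0.493 and 0.465 in MGT+shNT. These pairs, like Wnt5b and Wnt5a, were set side by side after their values were seen.

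Fzd4, which also serves the ligand norrin in vessels, had 15.8 and 16.2 CPM in MGT+shScd1 and 30.1 and 23.4 CPM in MGT+shNT. It was lower in both libraries, by a log2 change of -0.75 (SE 0.12, adjusted p = 0.000534), and missed the threshold on log2(FPKM + 1) (adjusted p = 0.0529). Fzd3, a receptor of the planar polarity branch, had 18.2 and 19.5 CPM, against 14.1 and 14.0 CPM (0.42, SE 0.11, adjusted p = 0.0126). That call was lost without MGT+shScd1 replicate 1 (0.47, adjusted p = 0.0646), without MGT+shScd1 replicate 2 (0.37, adjusted p = 0.127), with DESeq2's test (adjusted p = 0.0653) and on both FPKM scales (adjusted p of 0.0698 and 0.0903). Fzd6, its closest relative and among the most abundant Frizzled RNAs per length, had 127 and 130 CPM in MGT+shScd1 and 134 and 143 CPM in MGT+shNT and did not pass (-0.10, SE 0.06, adjusted p = 0.224). Fzd10 had 1 and 5 counts, against 6 and 5, and Fzd9 had 5 and 4, against 7 and 0, so neither was tested.

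The co-receptors Lrp5 and Lrp6, which pass the signal of a bound Frizzled to the destruction complex, were both below the controls. Lrp5 had 138 and 141 CPM in MGT+shScd1 and 177 and 171 CPM in MGT+shNT and fell (-0.32, SE 0.06, adjusted p = 0.000961), a call lost on both FPKM scales (adjusted p of 0.0722 and 0.0703). Lrp6 had 121 and 126 CPM, against 148 and 131 CPM (-0.18, SE 0.07, adjusted p = 0.0664), and passed without MGT+shNT replicate 2 (-0.26, adjusted p = 0.0017). Ror1 and Ror2 are receptor tyrosine kinases of the Wnt5a branch. Ror2 had 51.2 and 50.9 CPM in MGT+shScd1 and 43.7 and 36.6 CPM in MGT+shNT and rose (0.34, SE 0.09, adjusted p = 0.0109). It missed the threshold without MGT+shScd1 replicate 1 (0.33, adjusted p = 0.119), MGT+shScd1 replicate 2 (0.35, adjusted p = 0.0832) or MGT+shNT replicate 2 (0.22, adjusted p = 0.0526). Ror1 had 10.4 and 9.55 CPM, against 11.8 and 13.9 CPM (-0.36, SE 0.14, adjusted p = 0.0718), and passed without MGT+shNT replicate 1 (-0.47, adjusted p = 0.0179).

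**Figure D3:**
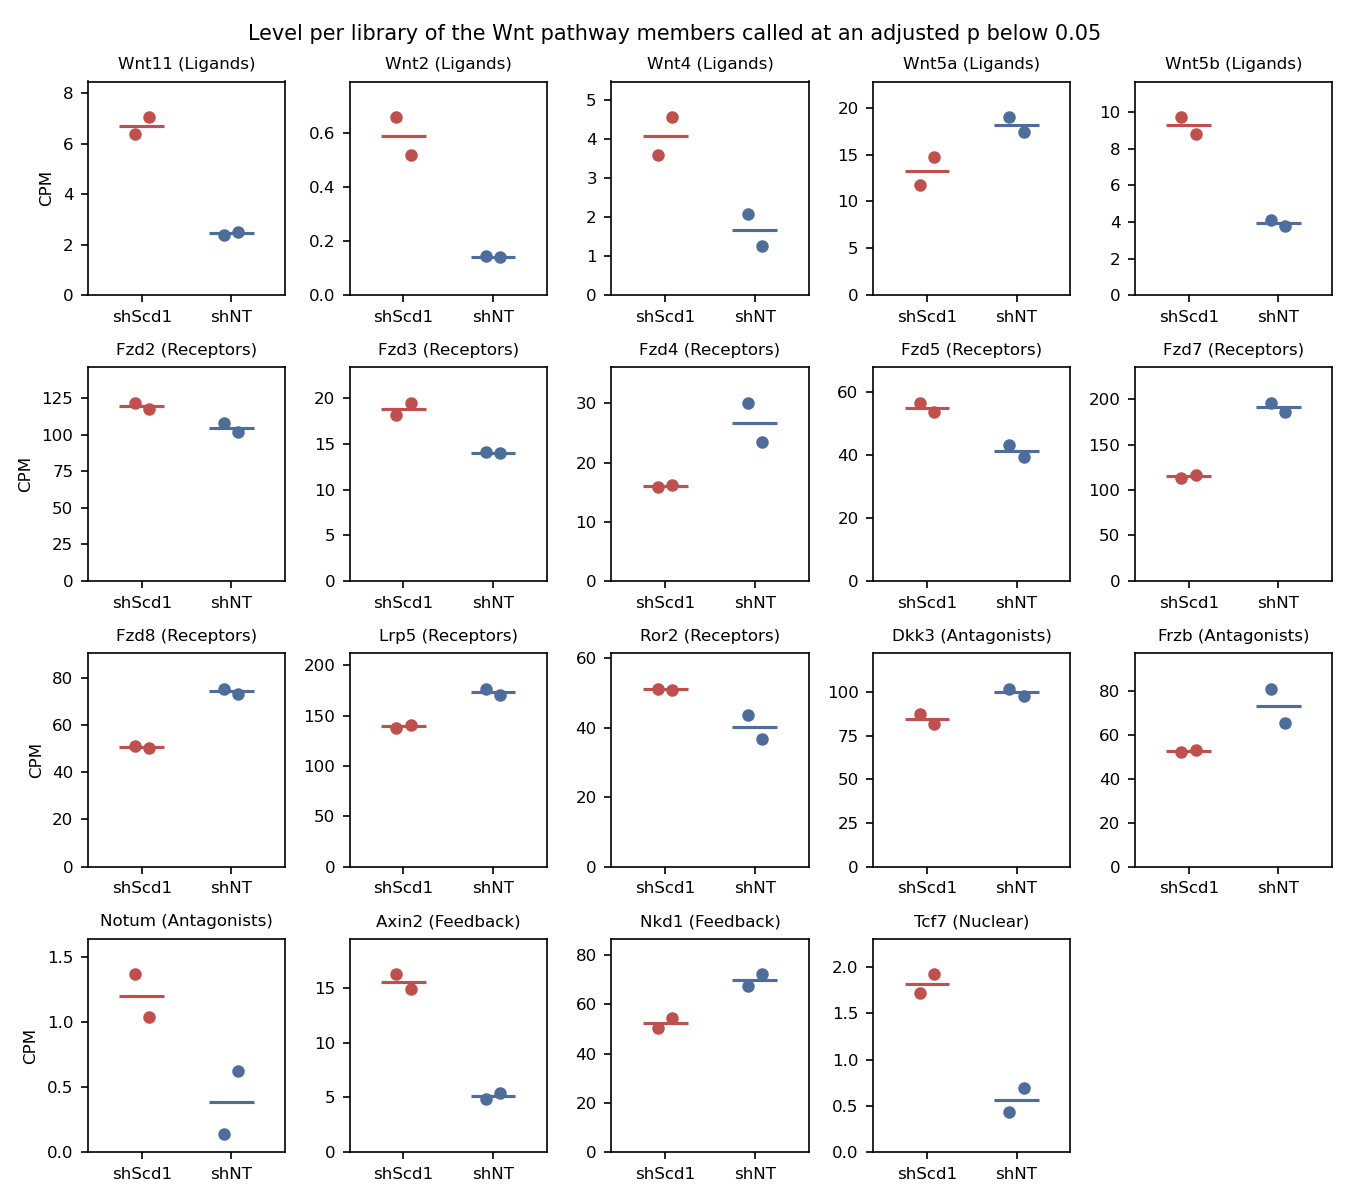
Level in CPM of each of the 19 called members in each library (points) with the group mean (line), MGT+shScd1 left of MGT+shNT, each panel on its own axis from 0. The pairs of points do not overlap in any panel, and the panels of Axin2, Wnt11 and Fzd7 show gaps that are wide beside the spread of a pair.

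Antagonists. Frzb and the Sfrp proteins bind Wnt through a Frizzled-like domain, Dkk proteins block Lrp5 and Lrp6 (Dkk3 being the divergent member that does not do so in the usual way), Wif1 binds Wnt, and Notum removes its palmitoleate. Of 11, 7 were tested, and the abundant members were lower or did not pass. Frzb had 52.4 and 53.1 CPM in MGT+shScd1 and 81.2 and 65.5 CPM in MGT+shNT, so that the controls were higher and less alike (-0.48, SE 0.09, adjusted p = 0.0013). It did not pass on the FPKM scales (adjusted p of 0.0837 and 0.0808), and without MGT+shNT replicate 1 the fall was smaller (-0.30, adjusted p = 0.00445). Dkk3, the antagonist gene with the most FPKM in all 4 libraries, had 87.4 and 81.6 CPM, against 102 and 97.8 CPM (-0.24, SE 0.06, adjusted p = 0.0131). The Dkk3 call was lost without MGT+shScd1 replicate 1 (-0.29, adjusted p = 0.0574), without MGT+shScd1 replicate 2 (-0.19, adjusted p = 0.186) and on both FPKM scales (adjusted p = 0.192 each). Sfrp1 had 34.0 and 33.7 CPM in MGT+shScd1 and 30.4 and 28.9 CPM in MGT+shNT (0.19, SE 0.09, adjusted p = 0.118), and Sfrp2 had 6.28 and 5.81 CPM, against 4.99 and 4.20 CPM (0.38, SE 0.19, adjusted p = 0.161). Neither passed, although both were above the controls in both libraries.

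Notum, a feedback target as well as an antagonist, was rare. It had 27 and 20 counts in MGT+shScd1 and 3 and 9 in MGT+shNT, a log2 change of 1.75 (SE 0.59, adjusted p = 0.0399). With 1 library left out, the call was lost in 3 of 4 cases, without MGT+shScd1 replicate 1 (1.48, adjusted p = 0.412), MGT+shScd1 replicate 2 (1.88, adjusted p = 0.22) or MGT+shNT replicate 1 (0.94, adjusted p = 0.279), and without MGT+shNT replicate 2 it was 2.99. It was also lost with DESeq2's test (adjusted p = 0.146) and on log2(FPKM + 0.1) (adjusted p = 0.0627). Wif1 had 18.8 and 16.2 CPM in MGT+shScd1 and 17.5 and 25.9 CPM in MGT+shNT. Its groups overlapped (-0.29, SE 0.16, adjusted p = 0.194), and it passed without MGT+shNT replicate 1 (-0.56, adjusted p = 0.000167), the comparison that keeps the control library rich in ribosomal RNA. Dkk2 had 15 and 11 counts, against 14 and 3, and did not pass (0.48, SE 0.58, adjusted p = 0.583). The other 4 antagonists were not tested: Sfrp4 had 9 and 17 counts in MGT+shScd1 and 8 and 0 in MGT+shNT, Dkk1 4 and 2 against 7 and 1, Sfrp5 1 and 2 against 6 and 4 (ratio 0.269, exact 95% counting interval 0.0475 to 1.04), and Dkk4 had 1 count in all.

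Feedback regulators. Axin2, a scaffold of the destruction complex and the most widely used readout of beta-catenin signalling, had the smallest adjusted p among the members that rose. It had 320 and 288 counts in MGT+shScd1 and 100 and 77 in MGT+shNT, or 16.2 and 14.9 CPM against 4.85 and 5.39 CPM. The gap was wider than the spread within either pair: the log2 fold change was 1.61 (SE 0.15, 3.06-fold, adjusted p = 3.32e-06), between 1.05 on log2(FPKM + 1) and 1.68 over all 10 alternatives. Its paralogue in the destruction complex, Axin1, picked out after its values were seen, differed by 0.04 (SE 0.07, adjusted p = 0.703).

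Nkd1 and Nkd2, which bind Dishevelled and restrain the signal, did not move with Axin2. Nkd1, also known as a target of beta-catenin, had 50.2 and 54.4 CPM in MGT+shScd1 and 67.5 and 72.1 CPM in MGT+shNT and fell (-0.41, SE 0.07, adjusted p = 0.000816). Nkd2 had 33.6 and 38.9 CPM, against 44.8 and 41.1 CPM (-0.25, SE 0.09, adjusted p = 0.056), and passed with no filter (adjusted p = 0.0459), with the replicate number as a block (adjusted p = 0.0322) and without MGT+shNT replicate 2 (-0.31, adjusted p = 0.0068). Znrf3 and Rnf43 are ligases that clear Frizzled from the membrane, and Lgr5 is an R-spondin receptor that counters them. Znrf3 had 7.34 and 7.79 CPM in MGT+shScd1 and 8.29 and 9.24 CPM in MGT+shNT (-0.21, SE 0.15, adjusted p = 0.354). Rnf43 had 4 and 2 counts, against 1 and 1 (ratio 2.69, exact 95% counting interval 0.48 to 27.2), and Lgr5 had 0 and 2, against 6 and 1 (0.256, 0.0259 to 1.34), too few to test.

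Nuclear factors. Tcf7 and Lef1 bind beta-catenin at target genes and are themselves targets in several tissues. Tcf7 had 34 and 37 counts in MGT+shScd1 and 9 and 10 in MGT+shNT, or 1.72 and 1.92 CPM against 0.436 and 0.70 CPM. The groups were well apart at this low level (1.71, SE 0.43, adjusted p = 0.00887), but the call was lost without MGT+shScd1 replicate 1 (1.77, adjusted p = 0.117) and without MGT+shScd1 replicate 2 (1.62, adjusted p = 0.148). Lef1 had 32 and 26 counts, against 22 and 18, above the controls in both libraries by less than the test could call (0.36, SE 0.38, adjusted p = 0.524).

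**Figure D4:**
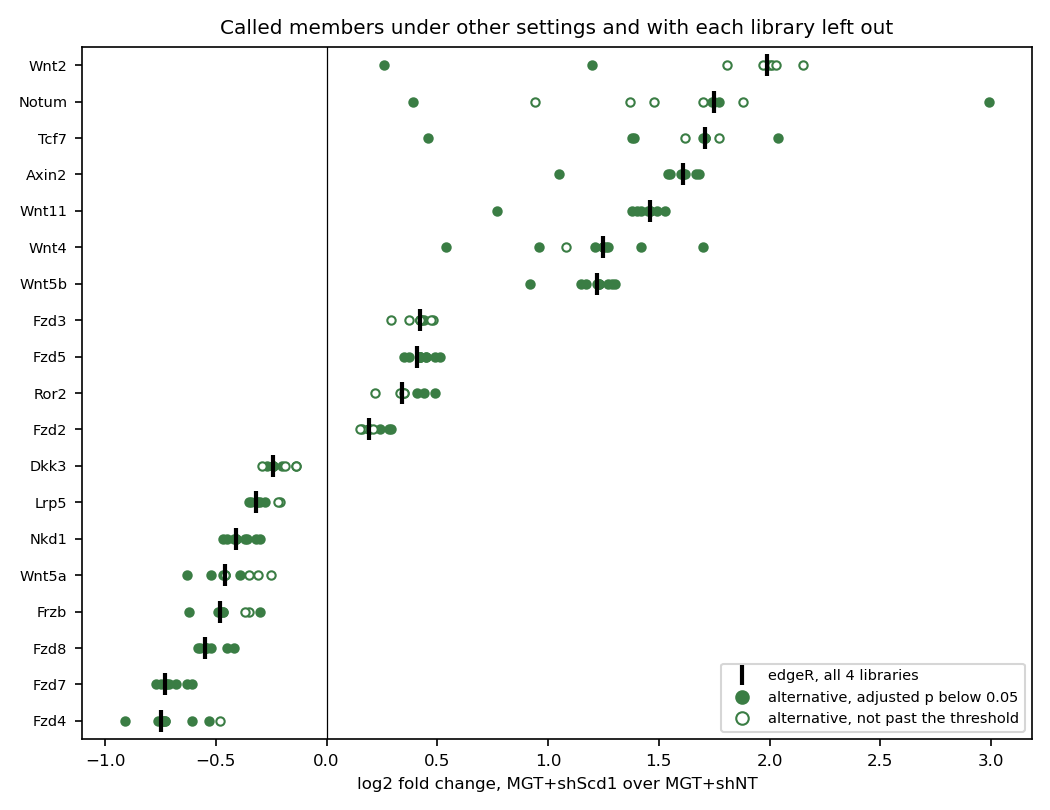
Log2 fold change of the 19 called members with all 4 libraries (bars) and under 10 alternatives (circles, 9 for Wnt2, which had no adjusted p from DESeq2): another scaling, DESeq2, no filter, the replicate block, 2 FPKM scales and each library left out, filled where the adjusted p stayed below 0.05. No point changes side of 0, and the lowest values of the rare genes Wnt2, Notum and Tcf7 (0.26, 0.39 and 0.46) come from log2(FPKM + 1).

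Some members share exonic bases with a gene on the other strand in GENCODE M21, and without the strand setting of the counting such reads cannot be told apart. Among called members these were Axin2 (209 bases shared with Gm11670), Wnt11 (364 with Gm8398), Wnt5a (358 with Gm2670), Fzd5 (1233 with Gm38058) and Notum (918 with Myadml2os and Notumos). Those partners had few counts of their own: Gm11670 had 1 and 4 in MGT+shScd1 and 0 and 1 in MGT+shNT, Gm8398 had 0 in all libraries, and Gm38058 had 8 and 1, against 1 and 3.

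The wider pathway was read from a list of 75 further genes, of which 63 were tested. The test called 13 higher and 15 lower and left 35 uncalled, with a median log2 fold change of -0.03, beside 29.3% called over all genes. Neither of the 2 secretion genes passed, Porcn (0.28, SE 0.21, adjusted p = 0.364) or the carrier Wls (0.06, SE 0.06, adjusted p = 0.495). Among R-spondins, which amplify Wnt signals, and their Lgr receptors, 0 rose and 3 fell of 5 tested. Rspo2 had 28 and 40 counts in MGT+shScd1 and 110 and 177 in MGT+shNT, a log2 change of -2.31 (SE 0.36, adjusted p = 0.000354) that was -1.61 without MGT+shNT replicate 2. Lgr4 (-0.63, SE 0.11, adjusted p = 0.000581) and Lgr6 (-0.86, SE 0.23, adjusted p = 0.012) fell too, Lgr6 not without MGT+shScd1 replicate 1 (-0.87, adjusted p = 0.0965) or MGT+shScd1 replicate 2 (-0.84, adjusted p = 0.0876). Among other modulators 2 rose and 2 fell of 8. Sost, the Lrp blocker sclerostin, had 21 and 46 counts, against 52 and 90 (-1.32, SE 0.44, adjusted p = 0.0382), and did not pass without MGT+shScd1 replicate 1 (-0.86, adjusted p = 0.344) or MGT+shNT replicate 2 (-0.55, adjusted p = 0.246), while it was -2.02 without MGT+shScd1 replicate 2. Sost and Lgr6 did not pass on either FPKM scale, nor Lgr6 with DESeq2's test (adjusted p = 0.0575).

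Planar polarity genes gave 6 rises and 2 falls of 12, or 66.7% called, beside 29.3% of all genes tested. The falls were Dact3 (-0.39, adjusted p = 0.000491) and Prickle2 (-0.33, adjusted p = 0.00267). Among the rises were Daam2 (0.40), Daam1 (0.29) and Prickle1 (0.25). These genes are named to complete the list, and their calls were not followed through the alternatives. The cadherin Celsr1 had 29 and 57 counts in MGT+shScd1 and 10 and 4 in MGT+shNT (2.46, SE 0.50, adjusted p = 0.00244), and Celsr2 had 80 and 90, against 43 and 29 (1.08, SE 0.26, adjusted p = 0.00631). Celsr1 passed the filter on low counts only through MGT+shScd1. Without MGT+shScd1 replicate 2, neither Celsr1 (1.89, adjusted p = 0.143) nor Celsr2 (0.98, adjusted p = 0.0996) passed, and Celsr2 also missed it without MGT+shScd1 replicate 1 (1.18, adjusted p = 0.0525). Vangl2, a core membrane protein of that branch, rose (0.45, SE 0.15, adjusted p = 0.0396), and did not pass without MGT+shScd1 replicate 1 (0.43, adjusted p = 0.21), MGT+shScd1 replicate 2 (0.46, adjusted p = 0.154) or MGT+shNT replicate 1 (0.35, adjusted p = 0.157). Celsr1, Celsr2 and Vangl2 did not pass on either FPKM scale, nor Vangl2 with DESeq2's test (adjusted p = 0.183).

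Inside the cell, 3 of 15 genes of the destruction complex and cytoplasm rose and 1 fell, and of 10 nuclear genes 0 rose and 4 fell. Called were 26.7% of the first list and 40% of the second, beside 29.3% of all genes tested. These counts are therefore no result about the lists. Ctnnb1, the gene of beta-catenin, had 535 and 516 CPM in MGT+shScd1 and 570 and 569 CPM in MGT+shNT and did not pass (-0.12, SE 0.06, adjusted p = 0.162). Apc2 rose (0.54, SE 0.10, adjusted p = 0.00117). Dvl1, a Dishevelled gene that relays the signal to the destruction complex, was the 1 that fell (-0.52, SE 0.07, adjusted p = 9.29e-05). Among the 4 nuclear genes that fell were Tcf7l2, with 34.4 CPM on average in MGT+shScd1 and 43.2 CPM in MGT+shNT (-0.33, SE 0.08, adjusted p = 0.00646), and Tcf7l1, with 65.0 and 76.9 CPM in the same order (-0.24, SE 0.08, adjusted p = 0.0442). Neither Tcf7l2 (adjusted p of 0.0602 and 0.0879) nor Tcf7l1 (0.0956 and 0.357) passed with either MGT+shScd1 library left out or on the FPKM scales, and Tcf7l1 also missed the threshold without MGT+shNT replicate 2 (-0.13, adjusted p = 0.227) and with DESeq2's test (adjusted p = 0.111). Porcn, Wls, Dvl1, Tcf7l1 and Tcf7l2 were picked out after their values were seen.

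Known target genes outside the 52 members did not share a direction. Of 17 listed, 11 were tested, of which 2 rose and 3 fell, or 45.5% called, beside 29.3% of all genes tested. Myc had 30.2 and 30.1 CPM in MGT+shScd1 and 20.3 and 19.5 CPM in MGT+shNT (0.60, SE 0.09, adjusted p = 0.000355), and Jun rose as well (0.47, SE 0.10, adjusted p = 0.00406), though not without MGT+shScd1 replicate 1 (0.42, adjusted p = 0.0948), and by 0.28 without MGT+shNT replicate 1. The cyclin gene Ccnd1 had 56.2 and 58.0 CPM, against 133 and 125 CPM, and fell (-1.17, SE 0.07, adjusted p = 4.21e-08), as did Twist1 (-0.53, SE 0.13, adjusted p = 0.00838), though Twist1 not without MGT+shScd1 replicate 2 (-0.45, adjusted p = 0.103). Sp5, a direct target in embryos that was picked out after its values were seen, was too rare to test, with 9 and 7 counts in MGT+shScd1 and 0 and 1 in MGT+shNT (ratio 14.3, exact 95% counting interval 2.22 to 601).

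**Figure D5:**
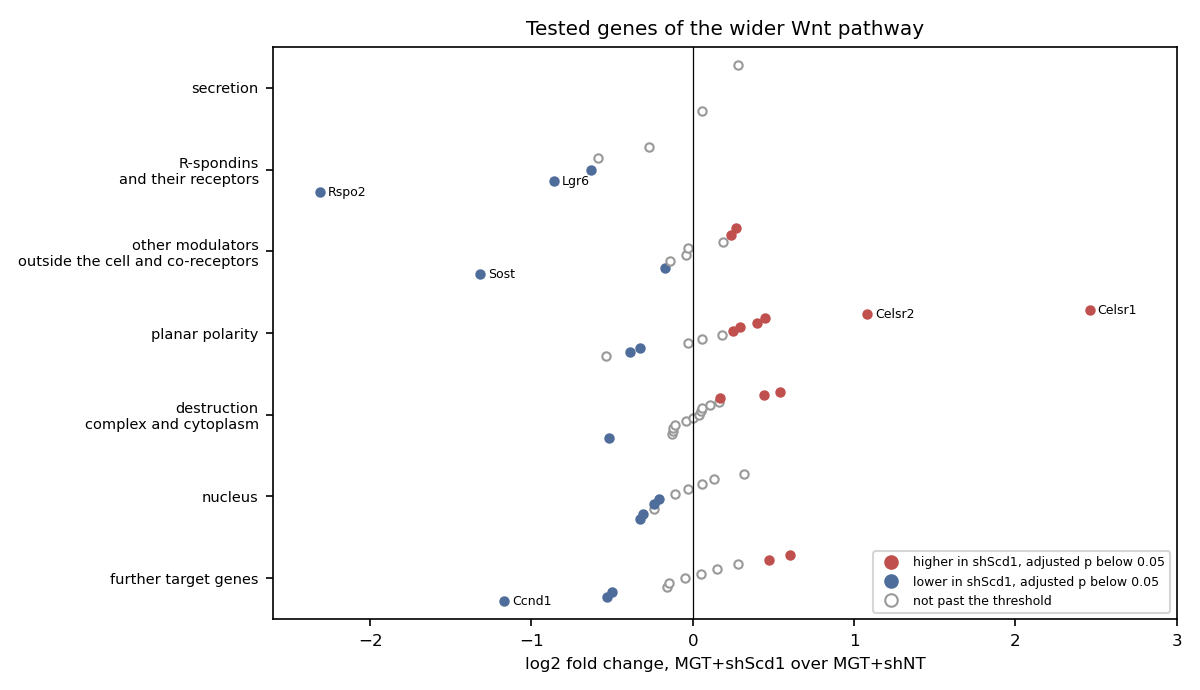
Log2 fold change of MGT+shScd1 over MGT+shNT for the 63 tested genes of the wider pathway, by list; filled points passed the adjusted p of 0.05. The R-spondin list lies left of 0, with Rspo2 at -2.31, and the planar polarity list reaches 2.46 with Celsr1.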

How the data were processed

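The authors deposited 1 table of raw read counts per gene and library, with FPKM values that equalled the FPKM computed from count, exonic length and library total for 100% of values within 0.005. Trimmomatic 0.36, Subread 1.5.1, featureCounts, SAMtools and build mm10 are named per the submitters' processing notes; the sources used here give no annotation release, strand setting or treatment of multi-mapping reads. Positions are GRCm38 from GENCODE M21, in which all 52 members were found. The column names of the MGT+shScd1 libraries carry a further number that the labels do not explain; their last number was read as the replicate.

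The 2 libraries of a group differed by more than counting noise (chi-square per degree of freedom 2.3 in MGT+shScd1 and 28.5 in MGT+shNT, 4.46 there without the 10 leading genes), so neither was a copy of the other; this does not show separate cultures. Counts were tested with edgeR 4.0.16 in R 4.3.3 (filterByExpr with a minimum count of 10 and total of 15, TMM factors from 0.946 to 1.03, quasi-likelihood test on group, two-sided). The SE is the absolute log2 fold change over the square root of F. A single value of 2 libraries against 2 cannot go below an exact permutation p of 0.333, so none was run. Alternatives were DESeq2 1.42.0, its size factors, no filter, a replicate block, limma 3.58.1 on log2(FPKM + 1) and log2(FPKM + 0.1), and each library left out. Same-numbered libraries did not deviate together (correlation 0.00769), so the block is an alternative only.

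Members, gene lists and the rule for named genes (every member tested; of other pathway genes the 6 largest calls each way, with Ctnnb1, Myc and Ccnd1; exceptions are stated) were chosen with earlier results of these data known, so no p is adjusted over a list alone. Promoter windows are from RefSeq, GRCm38.p6. A further list of cell markers is not reported here.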

Additional observations from a re-analysis of the deposited data

How the results depend on the processing

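Of the 19 called members, 18 kept their direction under the 10 alternatives and Wnt2 under the 9 that gave it a value, and 7 kept their call in every one. With DESeq2 size factors no member's call changed. With the DESeq2 Wald test 7 members were higher, and 1365 genes in all. On log2(FPKM + 1), 3 members, 7 other pathway genes and 1249 genes in all were lower, and on log2(FPKM + 0.1) 4, 7 and 1266. With 1 library left out, members called higher ranged from 4 to 10 and lower from 6 to 10, other pathway genes from 5 to 15 higher and from 7 to 15 lower, and all genes from 860 to 2386 higher and from 1357 to 2945 lower; the fewest calls came without an MGT+shScd1 library, where the lone sample is assumed to vary like the other group. The log2 fold change of Scd1 ranged from -3.53 to -3.10 there and stayed called. The replicate block gave 10 members higher and 9 lower, moving the calls of Wnt2 and Nkd2; the libraries share only a number. Signs changed only in uncalled members: over the libraries left out, Wnt16 ranged from -0.0006 to 0.36, Wnt2b from -0.54 to 0.14, Wnt9a from -0.01 to 0.09 and Dkk2 from -0.03 to 1.64; the cause was not tested. DESeq2 gave Wnt2 no adjusted p, so it has no value there. Depth limits the 17 untested members and Wnt2, Notum and Tcf7, each under 2 CPM in every library.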
